A study of Torulaspora microellipsoides with 8 samples.

Results

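The ends of the scaffolds of Torulaspora microellipsoides were examined for the RNA made there by white and opaque cells. T. microellipsoides is a budding yeast of the Saccharomycetaceae whose small white cells switch at low frequency to larger opaque cells. The members were the transcribed regions whose start, or whose end, lay less than 30 kb from an end of a scaffold with at least 50 regions. The rule used position only. It gave 288 of 4464 regions, from 250 assembled transcripts, on the 20 ends of 10 scaffolds, with 6 to 19 regions at an end. The other 4176 regions, in the interior of these scaffolds and on smaller ones, served as the background. White and opaque cells of one strain were compared in 3 log-phase cultures each, grown in yeast extract and glucose (YEG) medium without any further treatment. The submitters judged each culture to hold one cell type by plating and microscopy.

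An end is named here by its scaffold number and by whether it lies at low or high coordinates, on the CLIB830T reference used by the authors. Distance was counted from coordinate 0 at a low end and from the last counted region at a high end, so that an end is the edge of the counted regions and not necessarily that of a chromosome. A region is a stretch of an assembled transcript that matched one S. cerevisiae protein, and its name is that of the protein. At low percent identity, or over a short length, the name is only the best match found. Where several regions carry one name, they may be parts of one gene.

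In S. cerevisiae and other yeasts, chromosome ends carry gene families that differ between strains, among them genes for the use of sugars, for transport and for the cell surface. Genes beside the telomeres can be silenced by the Sir proteins, which bind deacetylated histones and spread inward from the end. Many genes there are little used in rich medium and respond to the supply of nutrients.

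The libraries held 24948791 to 50126043 counts, and a region's level is given in CPM, its counts divided by the library's size after trimmed mean of M values (TMM) scaling. With 3 libraries of each cell type, GAP1 and MEP2, which take up amino acids and ammonium, stood at 61.1 to 124.9 CPM in the white and 1416 to 1760 CPM in the opaque libraries. GLK1 and CTT1, for glucokinase and cytosolic catalase, ran the other way, at 1140 to 2007 CPM in the white and 45.6 to 114.5 CPM in the opaque libraries. None of the 4 lies near an end. They are no markers from outside the study, which chose them. In bulk cultures, less RNA per cell and fewer cells with the RNA cannot be told apart. Nor can fewer copies of an end and less RNA per copy, because DNA was not analysed here. By flow cytometry, the authors found more DNA in opaque than in white cells. Their gels showed no conspicuous difference in chromosome bands, and their genome assemblies held possible translocations.

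Regions near the ends were mostly lower in opaque cells. In edgeR's quasi-likelihood test, with p-values adjusted over every tested region and a threshold of 0.05, 149 of 270 tested members (55.2%) fell and 52 (19.3%) rose, and 69 passed in neither direction. Over all 4404 tested regions, 37.6% were called lower and 36.6% higher. The difference was wider among changes of at least 4-fold, with 67 members lower (24.8%) and 15 higher (5.56%). Over all tested regions, 5.25% were lower and 5.93% higher by that much. The 4134 other tested regions, those on smaller scaffolds included, gave 3.97% lower and 5.95% higher. Median log2 fold changes (opaque minus white) were -0.58 over the members and -0.00026 over the other regions. Libraries of the 2 cell types did not overlap for 216 members (80%), near the 77.8% of all tested regions.

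The filter on low counts bears on these counts, because 47 members passed it through their white libraries only and 8 through their opaque libraries only. Of the 212 that passed in both cell types, 109 were lower and 44 higher, and 30 were lower and 12 higher by at least 4-fold. The same requirement kept 3964 other regions, of which 131 were lower by at least 4-fold. A further 18 members were too low to be tested. Among members of 200 bp or more, 36 of 171 (21.1%) fell by at least 4-fold, beside 3.59% of the other regions of that length. The 3 ends with the longest lower stretches, described below, held 41 tested members, 40 of them lower, and 34 of the 67 members lower by at least 4-fold. Without them, 33 of 229 (14.4%) were lower and 15 higher by that much, and the median was -0.39.

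Every library showed the same order in the share of its counts. Members took 4.10%, 4.28% and 3.94% of the counts of the white libraries and 3.07%, 3.04% and 3.01% of the opaque ones, without overlap. Such shares weigh regions by level, so that a few abundant ones weigh heavily. ITR1 and BDH1 at 6 high, SUC2 at 3 low and UBI4 at 7 high were lower, while LAP3 at 1 low was among those higher. UBI4 enters with 2 nested regions, at 2911 and 2465 CPM in white cells. The 3 ends with the longest lower stretches took 0.345%, 0.381% and 0.345% in white and 0.0558%, 0.0571% and 0.0534% in opaque cells. Of their 93240, 136291 and 127354 white counts, SUC2 alone gave 51496, 79357 and 68987. Of their 27958, 14496 and 13314 opaque counts, it gave 3956, 2504 and 2109.

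**Figure D1:**
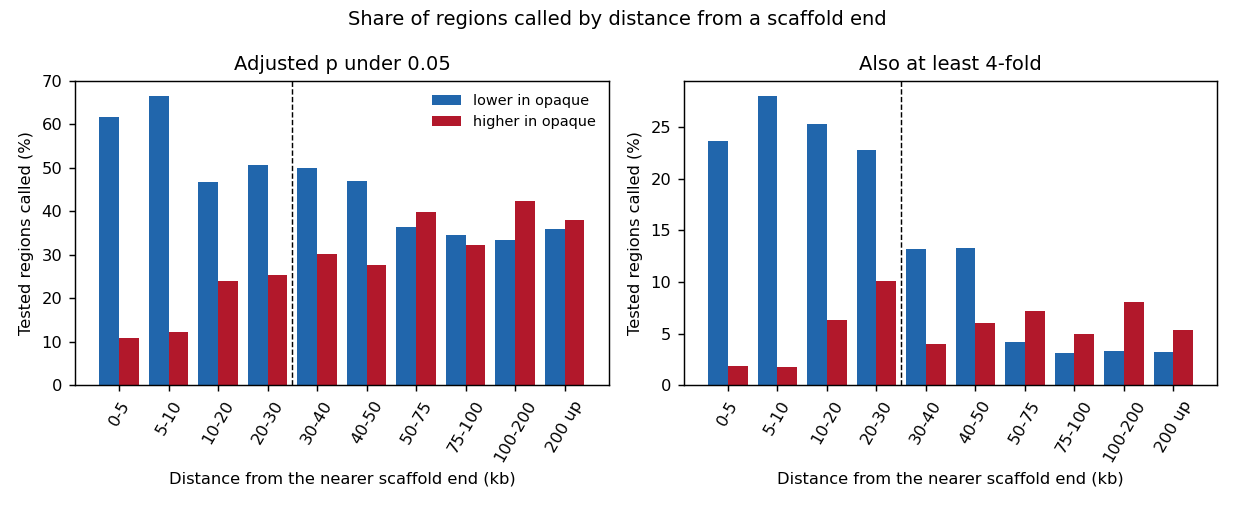
Percent of tested regions called lower (blue) or higher (red) in opaque than in white cells, by distance from the nearer scaffold end in kb, at an adjusted p under 0.05 (left) and also at least 4-fold changed (right). Regions on scaffolds with under 50 regions are not drawn, and the dashed line marks 30 kb. At least 4-fold lower regions made up 22.8% to 28.1% of each bin under 30 kb and 3.14% to 4.17% of each bin past 50 kb.

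The excess of lower regions reached past the limit of the rule. The share lower by at least 4-fold was 23.6% within 5 kb, 28.1% from 5 to 10 kb, 25.3% from 10 to 20 kb and 22.8% from 20 to 30 kb. It was still 13.2% from 30 to 40 kb and 13.3% from 40 to 50 kb, and 4.17% from 50 to 75 kb. Without the 3 ends named above, the shares were 14.6%, 16.7%, 12.5% and 14.5% in the 4 bins under 30 kb, then 10.9%, 7.04% and 4.23%. The median log2 fold change went from -0.75 within 5 kb to -0.38 at 20 to 30 kb and 0.05 at 50 to 75 kb. At the limit itself, the innermost tested member of each of the 20 ends had a median log2 fold change of -0.19, with 9 lower and 4 higher, and the first tested region beyond it one of -0.04, with 8 lower and 6 higher.

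Members also differed from the rest in measures the rule did not use. They matched their S. cerevisiae proteins at a median identity of 47.6% beside 59.3% for the other regions, and were 333 bp long in the median beside 1005 bp. Under 200 bp were 116 members (40.3%) and 17.3% of the other regions. Under 40% identity were 99 members (34.4%) and 14.6% of the others. A name carried by more than one region was found for 190 members (66.0%) and 40.9% of the others. Members were low already in white cells, with a median of 27.8 CPM per kb beside 52.6 for other regions, and 15.8 beside 57.0 in opaque cells. Low identity went with more lower calls also among the other regions. There 6.20% of tested regions under 40% identity fell by at least 4-fold, beside 3.59% of those above. Near the ends the same shares were 34.0% and 19.9%. How far length, level or identity contribute to the excess was not tested.

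**Figure D2:**
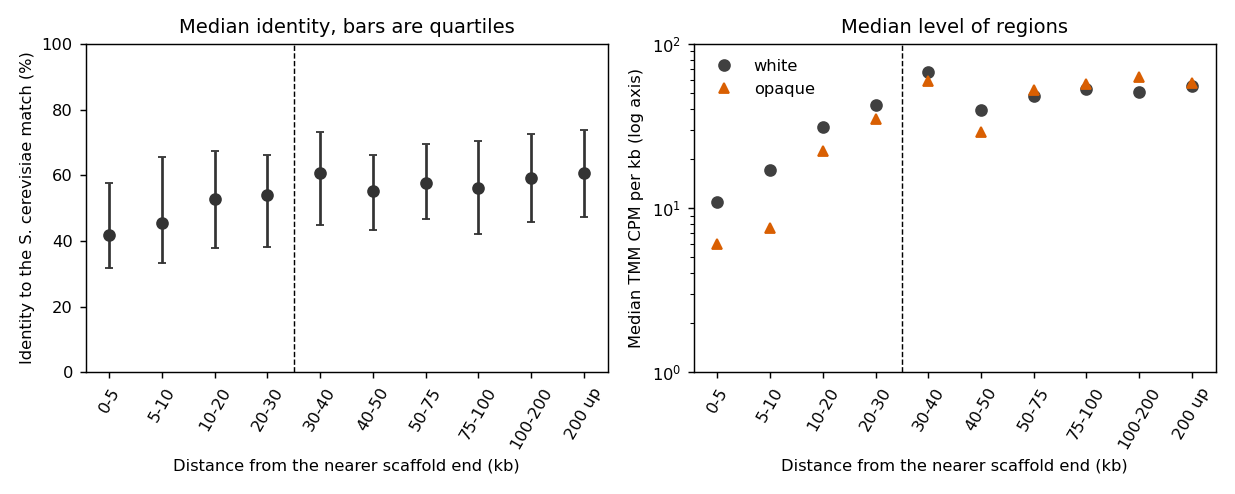
Median identity of regions to their S. cerevisiae match in percent, with bars over the interquartile range (left), and median level in TMM CPM per kb on a log axis for white (circles) and opaque (triangles) cells (right), by distance from the nearer scaffold end in kb. The dashed line marks 30 kb. Within 5 kb the median identity was 41.9% and the median level 10.9 CPM per kb in white and 6.06 CPM per kb in opaque cells.

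The ends differed widely. At 16 of the 20 ends more members were lower than higher, and 16 had a median log2 fold change below 0. Under 14 alternative settings, 14 to 17 ends had more lower members, and 13 ends kept their direction in all of them. The 7 that tied or turned in at least 1 setting were 1 high, 2 low, 4 high, 6 low, 7 low, 9 high and 10 low. No member was called higher at 5 ends, namely 3 low, 5 low, 5 high, 8 high and 9 low. At 5 low this rested on the filter. A 51 bp region named CLB5, with 9 counts over the white and 71 over the opaque libraries, was too low to be tested there, and DESeq2 or no filter gave that end 1 higher member, as did leaving out opaque replicate 2 or any one white library. A member lower by at least 4-fold was found at 13 ends and one higher by as much at 9. To say where a change stops, each end was read inward from its outermost tested region. Reading went on while regions were called in one direction and changed at least 2-fold, with 1 exception in a row allowed. The direction was that of the first such region among the 3 outermost, so that a stretch could open with up to 2 exceptions. At 3 high and 10 low, only the last of 3 regions met the limits. Such stretches were chosen from the values and carry no test. They were lower at 12 ends and higher at 5, and 3 ends (6 low, 7 low and 7 high) had none. Only 3 of them held more than 7 regions.

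**Figure D3:**
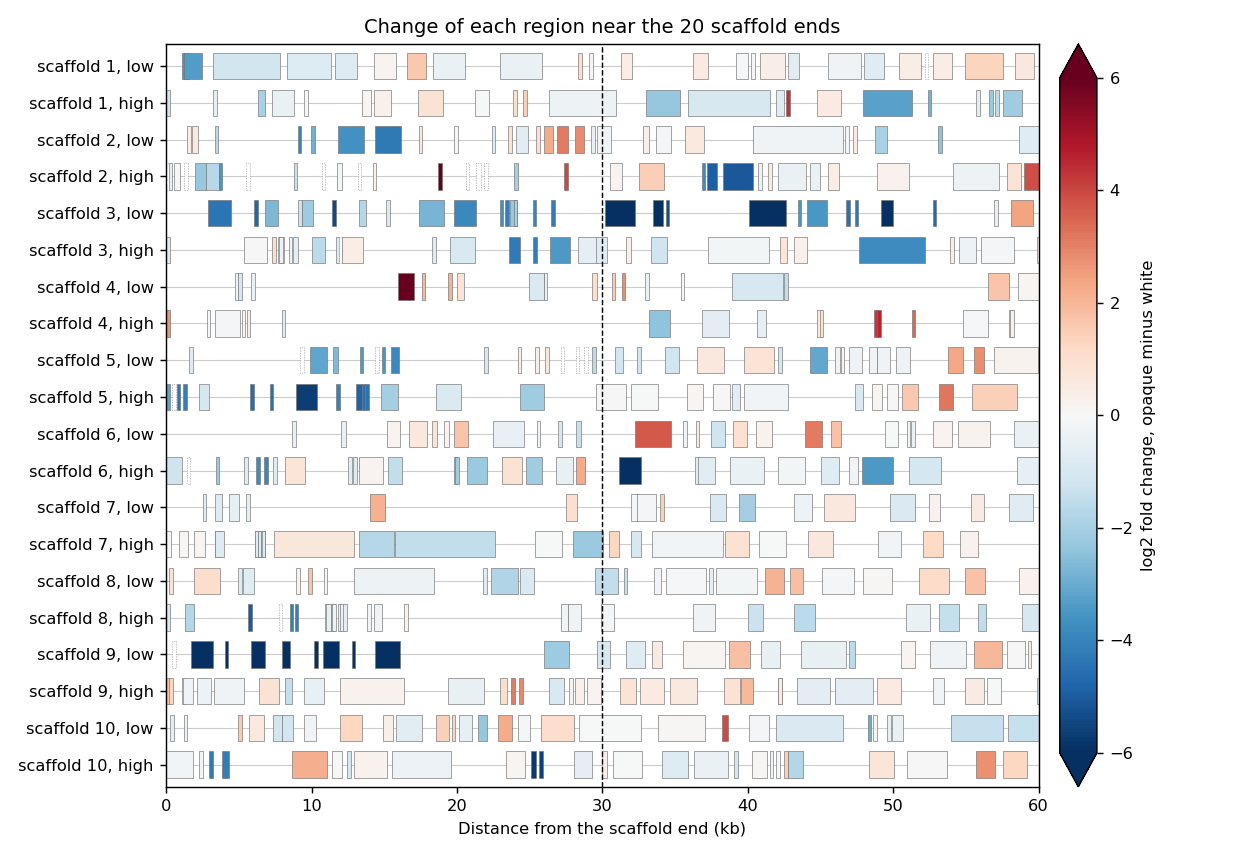
Regions within 60 kb of each of the 20 scaffold ends, drawn to scale by distance from the end in kb, and coloured by log2 fold change (blue, lower in opaque; red, higher; colours saturate at 6). Dotted white boxes were too low to be tested, and the dashed line marks 30 kb. Blue boxes predominate from the ends of scaffold 9 (low), scaffold 3 (low) and scaffold 5 (high), while other ends mix both colours.

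The low end of scaffold 9 was nearly silent in opaque cells. Its first 9 regions, between 404 and 16074, together gave 3454, 4615 and 4720 counts in the white libraries and 28, 12 and 10 in the opaque ones. That is 121.2, 125.9 and 117.1 CPM against 0.588, 0.497 and 0.426 CPM. The most abundant of them was SIT1, which in S. cerevisiae imports iron bound to siderophores and matched here at 61.3% identity. SIT1 stood at 69.0, 68.5 and 64.0 CPM in white and 0.210, 0.166 and 0.170 CPM in opaque cells (log2 fold change -8.45 ± 0.14 SE, n = 3 per cell type). Like 8 of the 10 tested regions of this end, it passed the filter on low counts through its white libraries only, so that it was bound to differ, and its p-value is not given as support. A region named for DAL5, the allantoate permease, lay outermost among those tested at 1672 to 3228. It fell from 12.7 ± 0.97 to 0.126 ± 0.044 CPM (mean ± SD), a log2 fold change of -6.61 ± 0.23.

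The regions between these were matched less closely. One named for YDL144C, of 978 bp and 38.9% identity, held 14.4, 15.7 and 13.7 CPM in white and 0.210, 0 and 0.0852 CPM in opaque cells. A region of 1083 bp named for PPR1, the activator of pyrimidine synthesis genes, matched at 26.4% and went from 13.0 ± 0.25 to 0.055 ± 0.096 CPM, with 0 counts in 2 of the opaque libraries. Another 3 regions had no count in any opaque library. They were 66 bp named RPS23A, which was too low to be tested, 126 bp named FMS1 and 189 bp named PPR1. Against a floor of 3 counts over the opaque libraries, they were at least 11.1-fold, 65.3-fold and 34.9-fold lower. With 1 to 3 opaque counts in all, a region named QDR3, for a drug transporter, had a white to opaque ratio of 112.0 (95% counting interval 30.7 to 930), and one named CUE1 of 391.6 (108.1 to 3238). Such intervals cover counting error only.

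The near absence of opaque counts stopped at a gap. No region was counted between 16074 and 25997. The next region, PHR1, for DNA photolyase, was still called lower but far less so, at 151.2 ± 6.1 and 33.6 ± 2.2 CPM (log2 fold change -2.18 ± 0.07). CHA1, for serine and threonine deaminase, from 29610 to 30527, had a log2 fold change of -1.01 ± 0.09 and was the last of the 10 tested regions of the stretch. SPT20 at 31.6 kb (-0.73), PEX11 at 33.4 kb (0.47) and CTR9 at 35.5 kb (0.11) followed. Over its 10 tested regions the stretch had a median of -7.49, or -6.59 with the regions that lacked opaque counts set at their bounds.

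The low end of scaffold 3 carried the longest stretch. It held 26 tested regions of 24 assembled transcripts from 2859 to 52850, with a median log2 fold change of -4.05, and all 16 members at this end belonged to it, 6 of them tested through their white libraries only. First came SUC2, named for invertase, which splits sucrose outside the cell, at 50.2% identity. It stood at 1807, 2165 and 1712 CPM in white and 83.0, 103.7 and 89.9 CPM in opaque cells (log2 fold change -4.36 ± 0.12, adjusted p = 2.4e-10, edgeR). The next member by level in white cells was YLL058W.

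Inward of it, regions named for sulfur and amino acid metabolism were lower. YLL058W, similar to cystathionine gamma-synthases, went from 131.8 ± 11.8 to 19.2 ± 2.7 CPM, and YCT1, a cysteine transporter, from 42.2 ± 1.8 to 2.81 ± 0.44 CPM. Short regions named GCV2 (168 bp), DUG2 (183 bp), FAR8 (213 bp) and HOS1 (183 bp) had log2 fold changes from -4.76 to -3.62. Regions named MCR1, BIO3, YNR064C and YKL222C were called lower at -4.16 to -1.25, all at 20.4% to 43.2% identity. An 87 bp region named UBP13 had a white to opaque ratio of 47.6 (95% counting interval 15.98 to 233.1) from 3 opaque counts. The exception in the stretch was a region named UBI4 at 15.1 kb, of 30.7% identity, which was called lower at -0.91 ± 0.14.

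Past 30 kb the stretch went on over 10 further regions. FRE3, named for a ferric reductase, directly outside the limit at 30.2 kb, held 73.5 ± 4.0 CPM in white and 0.562 ± 0.18 CPM in opaque cells (log2 fold change -7.01 ± 0.14). SUL1, a sulfate permease, fell by 6.76 on the log2 scale at 40.1 kb, and PHO5, an acid phosphatase, by 7.59 at 33.5 kb. A region named YIL169C at 49.1 kb went from 863.4 ± 61.3 to 0.638 ± 0.83 CPM, a log2 fold change of -10.01 ± 0.58. Between these, PHO12, PCL5, VBA2, SPA2 and TOS3 had log2 fold changes from -5.33 to -3.47. The stretch ended at a region named UBP9, at 52.9 kb. HMS2 at 57.0 kb had a log2 fold change of -0.53. Beyond it another YCT1 region, at 58.1 kb, was higher in opaque cells, at 74.3 ± 13.5 and 391.6 ± 62.4 CPM (2.40 ± 0.16). The 2 regions of that name, on either side of the stop, were called in opposite directions.

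The high end of scaffold 5 was lower to 26.0 kb. Its stretch took in 14 tested regions of 12 transcripts with a median of -4.26. Of the 15 tested members of this end, 8 passed the filter through their white libraries only. TPO1, named for a polyamine transporter at 32.9% identity, stood at 105.7, 119.1 and 107.7 CPM in white and 2.60, 1.86 and 1.58 CPM in opaque cells (log2 fold change -5.71 ± 0.14, adjusted p = 7.4e-11, edgeR). The 3 regions named YKL071W between 939904 and 940660 had log2 fold changes of -4.86 ± 0.19, -4.47 ± 0.23 and -4.44 ± 0.22. Inward of these the changes were smaller. AAD14, an aryl-alcohol dehydrogenase, had one of -2.06 ± 0.11, HOL1, a plasma membrane transporter, one of -0.86 ± 0.07, and RDR1, a zinc cluster repressor of drug resistance genes, one of -2.13 ± 0.10. From there DOA1 at 29.5 kb (0.04 ± 0.06) and SAC1 at 31.9 kb (-0.04 ± 0.06) were not called, CDC11 at 35.8 kb was called higher (0.14 ± 0.06), HOC1 at 37.6 kb was not called (0.02 ± 0.06) and MOG1 at 38.9 kb was called lower (-0.65 ± 0.10). The outermost 4 regions, named YKR078W, DNF3, PCF11 and VAB2, were short and low even in white cells, with means of 0.938 CPM or less. DNF3 could not be tested.

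**Figure D4:**
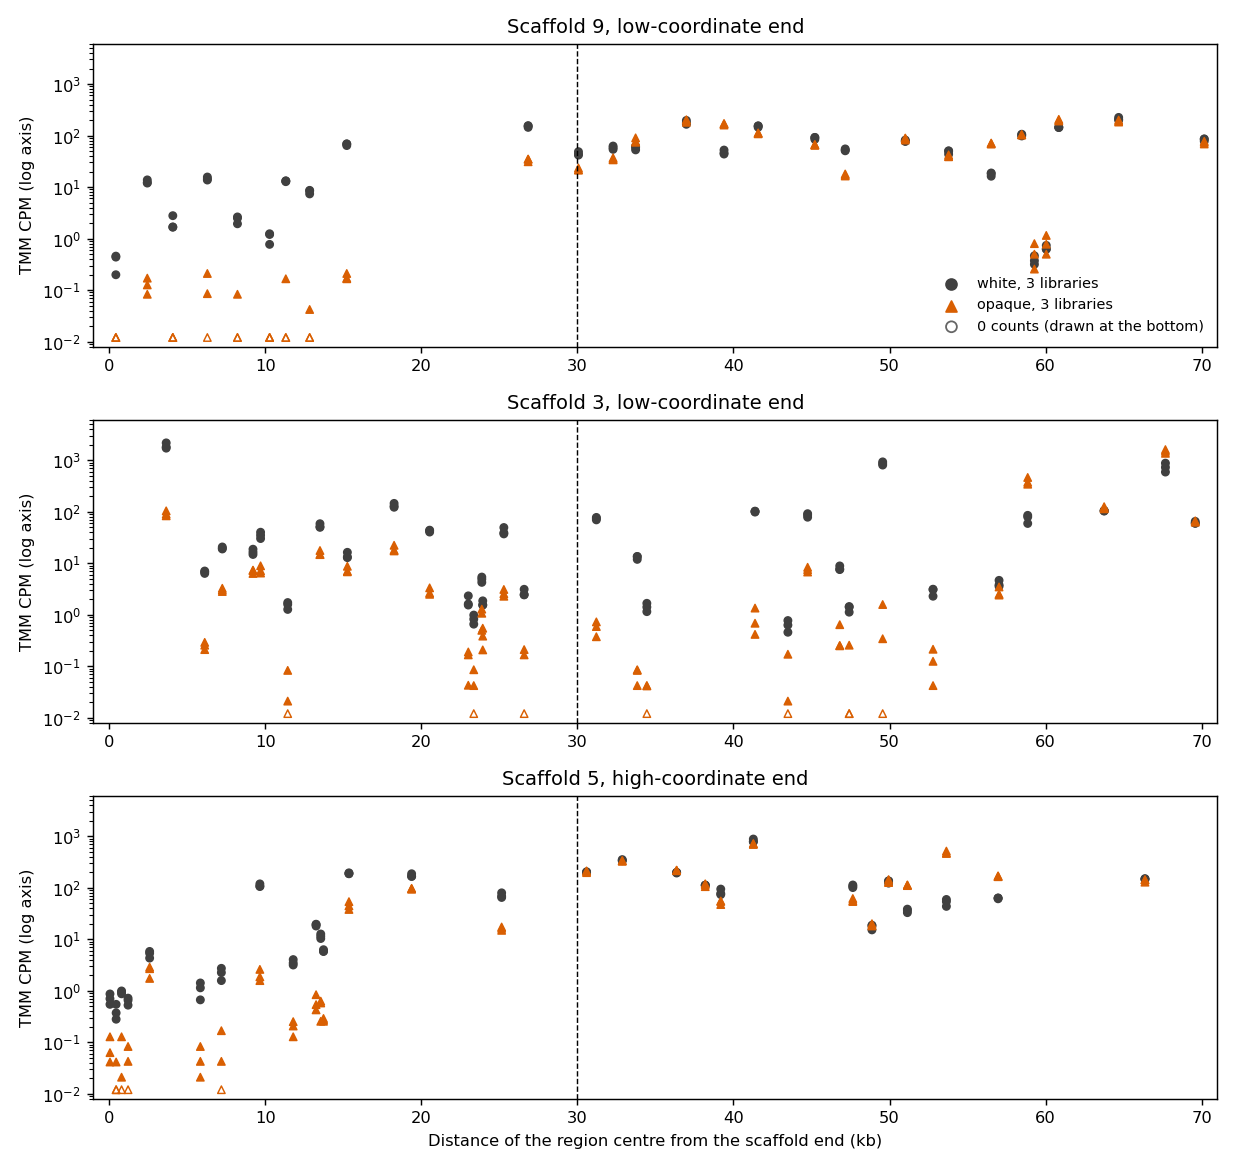
Level of each region in each library, in TMM CPM on a log axis, by distance of its centre from the end in kb, for the 3 ends with the longest lower stretches (circles, 3 white libraries; triangles, 3 opaque libraries; open symbols, 0 counts, drawn at the bottom). The dashed line marks 30 kb. White levels lie far above opaque ones up to 16.1 kb on scaffold 9, and above them by varying amounts up to 52.9 kb on scaffold 3, least at UBI4 at 15.1 kb (-0.91), and the levels meet near 30 kb on scaffold 5.

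Counted in transcripts, these 3 stretches were the longest lower ones on the 10 scaffolds. Reading all 10 scaffolds by the same limits, with 1 exception allowed, gave 3 lower runs of at least 8 transcripts, and all 3 held members. The longest lower run without a member had 7. Counted in regions, a lower run of 11 in the interior of scaffold 8 (505044 to 517871), from 5 transcripts, exceeded the 10 of 9 low. Among higher runs the longest, with 13 transcripts around MDN1 on scaffold 8 (158027 to 172234), held no member, and the longest with a member had 5. The extent of a stretch rested on the limits set. Without an exception the stretch of scaffold 3 stopped at 13.7 kb after 7 regions, and that of scaffold 5 at 15.9 kb. Where at least 10 counts were required in every library, 12, 6 and 2 regions were left in the stretches of scaffolds 3, 5 and 9.

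At other ends the lower stretches were shorter and gave way to regions that rose or did not change. The low end of scaffold 5 had 7 tested regions to 22.1 kb, the last of them named TOP2 (-1.02 ± 0.17). ARR3 and ARR2, which export arsenite and reduce arsenate, lay together at 9.90 to 11.8 kb. ARR3 stood at 18.7, 19.2 and 19.3 CPM in white and 2.12, 2.19 and 1.96 CPM in opaque cells (log2 fold change -3.18 ± 0.12), and ARR2 had a log2 fold change of -2.66 ± 0.14. A region named VBA2, for a vacuolar amino acid transporter, fell by 3.89, but passed the filter through its white libraries only. ARR3, of 1146 bp, and VBA2, of 579 bp, were the longest of the 16 regions at this end, and 5 could not be tested.

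At the low end of scaffold 2, DAK2 and YFL054C closed a stretch of 7 regions at 16.1 kb. DAK2, for dihydroxyacetone kinase at 89.3% identity, went from 55.6 ± 7.1 to 4.35 ± 1.13 CPM, and YFL054C, similar to glycerol channels, from 152.1 ± 23.1 to 7.82 ± 0.92 CPM (log2 fold change -4.28 ± 0.13). The next region, 57 bp named NTG2 at 17.4 kb, was higher (0.62 ± 0.09). Further in, genes of ribosome assembly rose within the same 30 kb. NOG2, for a GTPase of the large subunit, was counted as 2 regions at 20.8 ± 2.1 and 22.7 ± 5.0 CPM in white and 180.0 ± 0.88 and 159.8 ± 2.7 CPM in opaque cells (3.11 ± 0.08 and 2.82 ± 0.14). ESF2, of the small subunit, had a log2 fold change of 2.25 ± 0.07.

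At the high end of scaffold 10, WSC4, named for a sensor of the cell wall, fell in both its regions, from 37.5 ± 1.9 to 1.92 ± 0.20 and from 64.0 ± 3.7 to 3.44 ± 0.52 CPM (log2 fold changes -4.27 ± 0.12 and -4.21 ± 0.11). The stretch of 4 tested regions ended there, at 4.30 kb. The next region was RIX7, an ATPase of ribosome assembly, which rose from 25.1 ± 3.5 to 115.0 ± 3.4 CPM (2.20 ± 0.10). At 25.1 kb, UIP4 stood at 138.9, 145.9 and 133.8 CPM in white and 3.02, 1.99 and 2.13 CPM in opaque cells (-5.81 ± 0.12, adjusted p = 2.8e-11, edgeR). A second UIP4 region fell by 5.61, and MRN1 and POS5 on either side had 0.10 ± 0.07, not called, and -0.58 ± 0.07, called lower.

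The high end of scaffold 6 had a stretch of 5 tested regions, all at low levels, to 78 bp named ADE17 at 6.82 kb, and then named metabolic genes of both directions. ITR1, an inositol transporter of 28.4% identity, held 4365, 4633 and 3872 CPM in white and 870.4, 920.4 and 971.6 CPM in opaque cells (-2.22 ± 0.08). SAM4, which makes methionine, and BDH2, a butanediol dehydrogenase, were lower at -1.46 ± 0.13 and -2.14 ± 0.08, and the neighbouring BDH1 less so at -0.44 ± 0.08. GDH1, for glutamate dehydrogenase, rose by 0.88 ± 0.07, the acid phosphatase PHO3 by 0.80 ± 0.08, and ECM1, of ribosome export, by 2.27 ± 0.10. Directly past the limit, at 31.1 kb, ALD4, an acetaldehyde dehydrogenase, went from 1592 ± 82 to 6.58 ± 0.50 CPM (-7.92 ± 0.10).

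The high end of scaffold 2 held 19 regions, of which 8 were too low to be tested. Its stretch of 6 tested regions to 8.85 kb contained 3 regions named YRM1, a zinc cluster regulator of drug resistance, at -3.48 to -1.65. It ended at 87 bp named FET3. Further in, at 27.3 kb, a region named FAR11, of 213 bp and 25.0% identity, stood at 3.68, 3.08 and 3.77 CPM in white and 50.8, 53.6 and 59.0 CPM in opaque cells (3.95 ± 0.11). An 87 bp region named ECM30, at 18.7 kb, had 3 counts over the white and 229 over the opaque libraries. It passed the filter through its opaque libraries only. Its white to opaque ratio was 0.0118 (95% counting interval 0.00242 to 0.0350).

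At the high ends of scaffolds 8 and 3 and both ends of scaffold 1, more members were lower than higher, with 6, 10, 7 and 5 called lower at 8 high, 3 high, 1 low and 1 high. The last had 4 called higher, and 4 in each direction without white replicate 3, opaque replicate 2 or opaque replicate 3. NIT1, a nitrilase at 1.32 kb of 8 high, went from 38.4 ± 2.6 to 11.1 ± 1.7 CPM (-1.78 ± 0.11). After it 3 regions of 54 to 108 bp, lower by at least 4-fold and with means of 1.81 CPM or less in white cells, among them MST27 and the last, YPS1, closed the stretch at 8.95 kb. All 3 passed the filter through their white libraries only, so that their calls are not given as support. The remaining 13 tested regions of that end, among them 7 named YPR204W, 2 of the zinc transporter ZRT2 and 2 of PHO5, had log2 fold changes from -0.65 to 0.27, and 1 of them was called. This depended on the scaling, since 15 of the 18 tested regions of the end were called lower on the upper-quartile scale and 16 where library totals set the scale. At 3 high, the first regions were AYR1, ARB1 (0.03 ± 0.07, not called) and 33 bp named VPH1 (1.08 ± 0.42), which passed the filter through its opaque libraries only. There 3 neighbours between 23.5 and 27.8 kb fell together. CRG1 had a log2 fold change of -4.24 ± 0.13, a 90 bp region named TIF4632 one of -4.17 ± 0.53, and MCH2, of the monocarboxylate transporter family, one of -3.43 ± 0.15. TIF4632 passed the filter through its white libraries only, so that its call is not given as support. At 1 low, 2 overlapping regions named SIR1 lay outermost and were followed by ATG2 (-1.15 ± 0.07), with the stop at 7.86 kb. LAP3, a cysteine protease, rose there from 545.2 ± 28.8 to 1682 ± 153 CPM (1.62 ± 0.08). At 1 high the stretch ended at HPA2 (-1.93 ± 0.14), 6.77 kb in.

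The ends 7 high, 6 low and 8 low had no lower stretch. At 7 high, 13 of 18 members were lower, but 10 of these are overlapping or repeated UBI4 regions between 809712 and 813062. UBI4 encodes a chain of identical ubiquitin units, so that reads cannot be placed in one unit, and the 10 values (-0.83 to -0.71) are not separate measurements. GUT1, glycerol kinase, fell there from 239.7 ± 24.5 to 51.9 ± 1.1 CPM (-2.21 ± 0.08), and VPS13, of vacuolar sorting, in both regions (-1.72 ± 0.16 and -1.50 ± 0.06). At 6 low, KRR1, of the small ribosomal subunit's assembly, rose by 1.73 ± 0.06 and QCR7, of respiratory complex III, fell by 1.39. At 8 low, SUP35, the translation termination factor, rose by 1.04 ± 0.06 at 1.94 kb, and both regions of the chaperone HSP42 were lower beside it (-0.75 ± 0.11 and -0.73 ± 0.13).

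More members rose than fell at 4 ends, 4 low, 4 high, 9 high and 10 low, the last with 8 against 7. With upper-quartile scaling or total counts, 10 low had 8 in each direction. At 9 high, 8 rose and 6 fell, but more fell with upper-quartile scaling (8 against 7), total counts (8 against 6) or without regions under 200 bp (7 against 5), and also without white replicate 1 (8 against 7) or white replicate 3 (7 against 6). The largest rise was that of a region named SAG1 on 4 low, from 15971 to 17074, of 27.1% identity to the alpha-agglutinin that binds mating partners. It stood at 0.210, 0.518 and 0.0992 CPM in white and 588.2, 506.1 and 434.4 CPM in opaque cells (10.84 ± 0.29). It passed the filter through its opaque libraries only, with 29 counts over the white ones, and its p-value is not given as support. Short regions on its inner side, named MED11 and RPA190, were higher too (2.00 ± 0.30 and 2.14 ± 0.25) at 4.57 CPM or less. The outer side held 3 regions, named AVT5, SIN4 and SIR1, at -1.0 to -0.28. At 9 high, ATC1 was counted as 2 regions that rose from 5.09 ± 1.55 to 45.2 ± 5.5 and from 3.29 ± 1.29 to 25.1 ± 1.3 CPM (3.13 ± 0.19 and 2.90 ± 0.22). RPS31, which encodes a ribosomal protein fused to ubiquitin, lay beside it and rose by 1.06 ± 0.07. At 10 low, a stretch of 3 regions ended at 141 bp named MFB1 (1.56 ± 0.16), and further in YMR310C had a log2 fold change of 2.21 ± 0.06, the ribosome-associated chaperone ZUO1 1.45 ± 0.07 and 1.34 ± 0.07, and the initiation factor NIP1 1.10 ± 0.06, while GLC8, of protein phosphatase 1, had -2.32 ± 0.10. The high end of scaffold 4 had 6 members, all within 8 kb, of which 1, 63 bp named IMP2', was called (2.68 ± 0.37). It passed the filter through its opaque libraries only, so that its call is not given as support. This region alone put 4 high among the ends where more members rose. The other members were named YCR101C, YEL077C, YRF1-3, ILV1 and SIR1.

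At 7 low, IMA1, an isomaltase, stood at 14.7, 15.3 and 18.0 CPM in white and 76.4, 58.4 and 78.7 CPM in opaque cells (2.15 ± 0.13). YKL071W at 27.5 kb varied among the white libraries, at 73.9, 244.7 and 74.9 CPM, and was not called (1.01 ± 0.61). Both remaining called members of this end, named YLL066C and YRF1-6 at 26.4% and 22.9% identity, were lower at -0.78 and -0.55. Without white replicate 2, white replicate 3 or opaque replicate 3, no member of this end was called lower, and 2, 1 and 1 were called higher.

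The outermost tested regions of the 20 ends were short and mixed in direction. Of these, 14 were under 300 bp, 11 were called lower, 3 higher and 6 neither, with a median log2 fold change of -0.66. Among those called higher, IMP2' and MIP1 passed the filter through their opaque libraries only. Among those called lower, YKR078W and DAL5 passed it through their white libraries only. The calls of these regions are not given as support. Besides those described above, ATG26 (1 high), AYR1 (3 high and 8 high), ARG8 (6 high), SLA2 (6 low), OCA5 (10 high) and NSE5 (10 low) were called lower at -1.25 to -0.19. MIP1 (8 low) and SPT3 (9 high) were called higher, at 0.95 and 1.74. ENV11 (2 high), PAP1 (5 low), SKS1 (7 low) and PRP19 (7 high) were not called, at -0.76 to -0.01.

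Regions that share a name did not all change alike at different ends. YKL071W regions fell at 5 high and were not called at 2 low and 7 low. DAL5 was lower at 9 low and higher at 3 high, where it went from 49.4 ± 1.6 to 67.2 ± 3.7 CPM (0.44 ± 0.07). YDL144C was likewise lower at 9 low and higher at 10 low (0.59 ± 0.07), and an interior copy on scaffold 7 was not called (-0.02). YLL058W was lower at both of its ends, at -2.79 ± 0.10 on 3 low and -0.94 ± 0.09 on 3 high, where it was the more abundant (794.4 ± 67.5 CPM in white cells). The copies differ in sequence, at 38.9% and 60.3% identity for YDL144C, and none was tested against another. SIR1, which in S. cerevisiae helps to found silencing at the mating loci, named 5 regions at 4 ends and no interior region, at 23.9% to 38.9% identity. Those at 1 low fell from 15.6 ± 1.6 to 1.37 ± 0.15 and from 27.9 ± 2.4 to 2.69 ± 0.52 CPM. At 2 high, 4 low and 4 high they were not called (-0.78 to -0.02), at under 3.2 CPM in each white library.

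**Figure D5:**
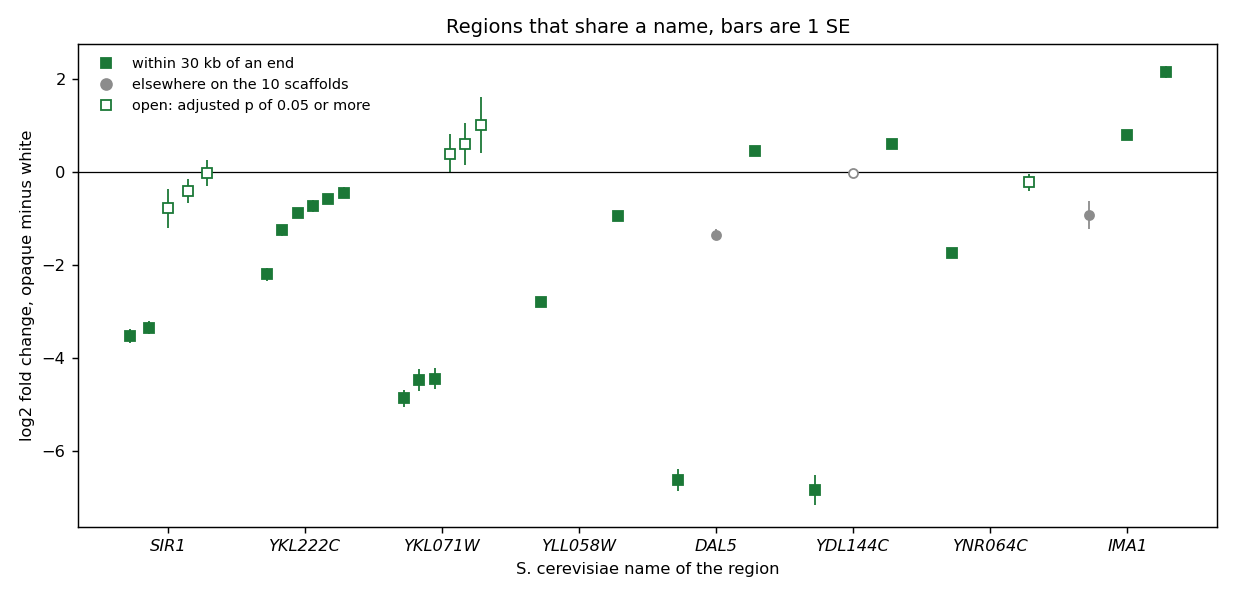
Log2 fold change (opaque minus white) with 1 SE of every tested region that carries one of 8 names found at more than 1 end, on the 10 scaffolds (squares, within 30 kb of an end; circles, elsewhere; open symbols, not called at an adjusted p of 0.05). DAL5 and YDL144C have members on both sides of 0, and all 6 YKL222C members lie below 0.

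By role, regulators and most drug transporters were lower, redox enzymes were lower about as often as all members, and sugar genes were split. All 14 members of a list of zinc cluster and other sequence-specific regulators were called lower, 7 of them by at least 4-fold, with a median of -1.89. Elsewhere 35 of 74 tested regions of the list were lower and 13 higher, with a median of -0.23. The 14 carry 6 names and are not independent, since 6 were named YKL222C, 3 YRM1 and 2 PPR1, and the others RDR1, PDR1 and THI2. Both PPR1 regions and the 60 bp YRM1 region, all among the 7, passed the filter through their white libraries only. They were bound to differ, as were QDR3 of 9 low and VBA2 of 5 low in the next list and YDL144C of 9 low in the one after it. Of 8 members named for drug efflux, 6 were lower and none higher (median -1.12), and of 31 tested regions elsewhere 9 were lower and 10 higher (median 0.16). The 6 include both regions of YOR378W at 10 low (-1.15 and -1.08), and YOR1, the most abundant of the list near the ends, was not called (-0.04 ± 0.09). Among 8 alcohol, aldehyde and aldo-keto dehydrogenases, 5 were lower and 1 higher (median -0.52), and elsewhere 16 of 28 were lower and 6 higher (median -0.41). A list of subtelomeric families had 9 tested members, 4 lower and none higher, at a median of -0.55. Of the 9, 5 were named SIR1, and the others YRF1-3, YEL077C, YRF1-6 and MST27. Among the 4 lower were the 2 overlapping SIR1 regions of 1 low, which are not separate measurements. MST27, also among the 4, passed the filter through its white libraries only. Elsewhere 7 of 12 were lower and none higher, at a median of -0.72.

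The 3 sugar genes were SUC2, which fell, and 2 IMA1 regions, which rose, the second by 0.80 ± 0.10 at 4 low. The IMA1 region in the interior of scaffold 9, of 93 bp, was lower (-0.92), and of the 15 tested sugar regions elsewhere 9 were lower and 3 higher (median -1.02). Iron uptake was represented by SIT1 and a short region named FET3 (-1.34 ± 0.12), both lower. Of the 22 tested iron regions elsewhere, 13 were higher, with a median of 0.66. Of 6 members of a phosphate and sulfur list, YCT1 and SAM4 were lower, PHO3 and SAM3 (0.18 ± 0.07) higher and 2 PHO5 regions not called. SAM4 and the acid phosphatases PHO3 and PHO5 are not transporters. Elsewhere 9 of 11 were lower and 1 higher (median -0.85). The wall proteins at the ends were SAG1, which rose, and a region named FLO10 (-0.19, not called, under 1.1 CPM), while 16 of 19 tested wall protein regions elsewhere were lower and 1 higher (median -2.85).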

How the data were processed

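The deposited files of the 3 white and 3 opaque RNA cultures hold raw counts, whole numbers that the authors obtained for each transcribed region, without normalization. The authors made stranded mRNA libraries, sequenced them in pairs, aligned reads to the CLIB830T reference with STAR, assembled and merged transcripts with cufflinks, and named them by BLAST against S. cerevisiae proteins. Whether counting used the strand, or both reads of a pair, is not given in the sources used here. The deposited fraction of each region covered by reads was made by the authors from covered bases and region length, and was used only to read the files. Percent identity to the match was computed by the authors with BLAST and read from their deposited annotation. The submitters' processing notes also name DESeq2.

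Distance, names and lengths were joined to the counts of 4464 regions, 2 of them unnamed. edgeR 4.0.16 in R 4.3.3 was fitted to all regions (TMM, filterByExpr, robust quasi-likelihood, cell type as the single factor), which left 4404 tested regions. The script was tested on simulated data. Scaling factors lay between 0.941 and 0.951 for the opaque libraries and between 1.02 and 1.09 for the white ones. The biological coefficient of variation common to all regions was 0.0847. The SE of a log2 fold change is its size over the root of F. No library pair agreed within sampling noise. For a single region, an exact permutation test of 3 against 3 libraries cannot give a p under 0.1. Nothing tells whether the cultures began from separate colonies, so p-values measure the spread between these cultures.

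The text names, for each direction, the 12 members with the largest change that were called, at least 4-fold, without overlap and at 10 CPM or more in the higher cell type (11 met this for higher); the outermost tested region of each end; the last region of each stretch of 3 or more; the regions of the longest stretch in each direction; the regions around the limit at 3 low, 5 high and 9 low; and list members with the largest levels or changes. Others were chosen after their values were seen. The members and the 10 gene lists were chosen with earlier results of these data known, so the lists carry counts and medians and no test. Alternatives were another scaling, tool, filter, length and distance limit, a replicate block, and leaving out each library. Genomic DNA and sequence were not analysed here.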

Additional observations from a re-analysis of the deposited data

How the results depend on the processing

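Of the 109 named regions, 1461 comparisons with an alternative gave 1417 results on the same side of the threshold, 31 that no longer passed, 13 that newly passed and 0 reversed. DESeq2 lost 2 of these calls, no filter gained 1, and scaling from the other regions alone lost 1 and gained 1. This last setting, 1 region per transcript and leaving out 3 ends were added after seeing the data. The median over all tested regions was -0.021 as reported, and moved to -0.136 with the upper quartile and to -0.177 with library totals as the scale. On these 2 scales the median over members was -0.698 and -0.739 and that over other regions -0.116 and -0.157. The median over members was -0.442 with at least 10 counts in every library, -0.471 without regions under 200 bp and -0.390 without the 3 ends with the longest stretches. These 3 settings left 30, 36 and 33 members lower by at least 4-fold, all 3 with fewer members tested. The median over other regions was -0.0187 without a filter, -0.0221 with at least 10 counts, -0.0161 without short regions, -0.0455 with scaling from other regions, 0.0224 with 1 region per transcript, and -0.0204 to 0.00374 without 1 library. With membership set at 10 kb, 72 were lower and 13 higher, 29 and 2 by at least 4-fold, and medians were -0.730 and -0.0108. At 20 kb, 32 were higher, 7 by at least 4-fold (median -0.714). At 50 kb, 226 were lower and 98 higher, 23 higher by at least 4-fold, with medians of -0.397 and 0.0118. The stretch of 3 low stopped at 13742 bp after 7 regions without an exception, and at 11488 bp after 6 with a limit of 2 on the log2 scale. That of 5 high stopped at 15929 bp without an exception. With at least 10 counts in every library, 12, 6 and 2 regions were left in the stretches of 3 low, 5 high and 9 low, and without short regions 15 and 7 in those of 3 low and 5 high. The stricter filters left fewer regions to test, and what lies behind their smaller counts was not tested. Regions with few opaque counts, as at 9 low, are limited by depth, and bounds replace fold changes there.

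White and opaque cultures share numbers 1 to 3, but same-numbered libraries did not deviate together (correlations of -0.019, -0.049 and 0.21), so they were not treated as paired. With the number as a replicate block, 152 members were lower and 51 higher, 67 and 15 by at least 4-fold, and 2 named regions lost and 1 gained a call.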

Other observations

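Scaffolds with fewer than 50 regions were left out of the rule, since their ends cannot be told from their middle. Their 115 regions resembled those near the ends, with 57 of 98 tested regions lower (58.2%) and 15 higher, and 16 lower (16.3%) and 8 higher by at least 4-fold. Their median log2 fold change was -0.72. Whether these scaffolds belong at chromosome ends was not tested.

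Several of the largest changes on the 10 scaffolds lay from 30 to 60 kb of an end, outside the members. Of these, chosen after their values were seen, DSE4, a wall glucanase of daughter cell separation, had 2 regions at 37.2 and 38.3 kb of 2 high at 272.4 ± 20.8 and 934.7 ± 32.0 CPM in white and 8.89 ± 1.63 and 27.8 ± 4.6 CPM in opaque cells (log2 fold changes -4.95 ± 0.12 and -5.07 ± 0.12). GDB1, the glycogen debranching enzyme, at 47.6 kb of 3 high, went from 921.0 ± 48.2 to 68.2 ± 3.4 CPM (-3.75 ± 0.08). ACS1, an acetyl-CoA synthetase, at 47.9 kb of 6 high, fell by 3.45, near ALD4 on the same end. LIA1, at 53.2 kb of 5 high, rose from 52.3 ± 8.0 to 484.1 ± 27.6 CPM (3.21 ± 0.11), and YVH1, a phosphatase of ribosome assembly, at 59.0 kb of 2 high, had a log2 fold change of 3.89 ± 0.14.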
